A study of Mus musculus with 40 samples.

Results

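Skeletal muscle releases proteins that act on other tissues, and 7 genes for such factors were followed here in the extensor digitorum longus (EDL), a fast hindlimb muscle of the mouse: Fgf21, Gdf15, Metrnl, Il15, Fndc5, Ostn and Apln. They were taken by gene symbol, and each had its own row among the 22844 genes of the deposited tables. The mice belonged to the strain Tsc1tm1Djk/J, in which Tsc1 is floxed. TSCmKO mice lacked Tsc1 in skeletal muscle, so that the growth-promoting kinase complex mTORC1 lost its brake there, and controls (CON, Tsc1fl/fl) were littermates that carried the floxed alleles without Cre recombinase. The study names the knockout as skeletal muscle-specific, and the promoter driving Cre was not given in the sources used here. The comparisons address how mTORC1 activity in muscle fibers changes gene expression and what short mTORC1 inhibition reverses.

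Messenger RNA was sequenced from whole EDL of 8 groups with 5 libraries each, 40 in all. Vehicle-treated mice gave the groups 3mCON and 3mTSCmKO at 3 months of age and 9mCON and 9mTSCmKO at 9 months. Mice given the mTORC1 inhibitor rapamycin (RM) by intraperitoneal injection over 3 days gave 3mCON+RM, 3mTSCmKO+RM, 9mCON+RM and 9mTSCmKO+RM. The labels give the rapamycin dose as 4 mg per kg, whereas the study text gives a higher one, so the dose is uncertain. The labels do not name the animal behind each library. For the knockout data the study states 5 mice per group, with an individual animal behind each plotted sample. The p-values measure the spread between libraries.

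Libraries held 8883870 to 35224669 counts, so that 1 count stood for 0.0285 to 0.112 CPM, the count scaled to the library total and here adjusted by TMM factors. Tsc1 itself lay between 17.8 and 35.8 CPM in the 20 knockout libraries and between 51.3 and 134 CPM in the 20 control libraries, without overlap. The 7 markers of fast muscle fibers summed to 123000 to 177000 TPM, the deposited level per transcript length, in every library, and none of them was at 0 in all libraries. Mean insert size ran from 175 to 239 nt at 3 months and from 223 to 308 nt at 9 months, so that insert size moved with age. A whole muscle was sequenced, and fewer cells of a type and less RNA per cell cannot be told apart in any value below.

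GDF15 is a hormone of the TGF-beta superfamily that lowers appetite through its receptor GFRAL and the coreceptor RET. FGF21 is a fibroblast growth factor that acts on metabolism through FGFR1 and the coreceptor beta-Klotho (Klb). Both are known as secreted outputs of the integrated stress response, in which the transcription factor ATF4 switches on genes of amino acid supply. Metrnl encodes meteorin-like, a factor linked to exercise and browning of fat, and Il15 a cytokine that maintains lymphocytes. Fndc5 encodes the membrane protein from which irisin is released. Ostn encodes osteocrin (musclin), a peptide that competes for the natriuretic peptide clearance receptor NPR3, and Apln the peptide apelin.

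The upstream sequences of Fgf21 and Gdf15 are shown because these genes had by far their highest counts in the same group, 9mTSCmKO. They are the 250 bases before the annotated start, 5′ to 3′ on the gene's strand, from RefSeq on GRCm38.p6. Capitals mark matches, on either strand, to 4 motifs searched: the ATF4-C/EBP composite element TGATGNAA, the E-box CACGTG, the FoxO site GTAAACA and the cyclic AMP response element core TGACG.
Fgf21, chr7:45615491-45615740, minus strand: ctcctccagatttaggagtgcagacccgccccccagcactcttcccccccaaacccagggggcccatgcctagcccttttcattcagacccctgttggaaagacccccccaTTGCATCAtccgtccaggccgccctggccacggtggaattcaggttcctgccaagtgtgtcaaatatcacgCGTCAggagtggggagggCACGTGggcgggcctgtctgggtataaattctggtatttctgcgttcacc
Gdf15, chr8:70632457-70632706, minus strand: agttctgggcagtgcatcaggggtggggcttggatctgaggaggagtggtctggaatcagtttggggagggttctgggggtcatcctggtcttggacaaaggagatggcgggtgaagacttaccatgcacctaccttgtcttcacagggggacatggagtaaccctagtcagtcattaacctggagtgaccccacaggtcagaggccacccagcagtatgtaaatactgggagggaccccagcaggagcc
The Fgf21 window held the composite element on the opposite strand, from 139 to 132 bases before the start. It also held the core element on the opposite strand, from 68 to 64 bases before, and an E-box from 50 to 45 bases before, and the 3 matches did not overlap. The Gdf15 window held no match to these letters, and a downstream alternative start of Gdf15 had an E-box from 83 to 78 bases before it. Among all 32851 promoter windows of 300 bases, 3.97% held the composite element, 7.15% the E-box, 3.65% the FoxO site and 20.8% the core element. The windows of Metrnl, Fndc5 and Apln held none of the 4 motifs, and none was read for Il15 and Ostn. A match is a description of letters and not a binding site.

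The genes lie on separate stretches of GRCm38, all protein-coding. Fgf21 spans chr7:45613886-45615490 and Gdf15 chr8:70629393-70632456, both on the minus strand. Metrnl spans chr11:121701544-121716306 on the plus strand and Il15 chr8:82331632-82403222 on the minus strand. Fndc5 spans chr4:129136999-129144593 and Ostn chr16:27307489-27351212, both on the plus strand, and Apln chrX:48025146-48034853 on the minus strand. Of the 31-base words of each gene's transcripts, at most 0.439% (Fndc5) were shared with any other measured gene. Ostn was the only member overlapped by annotated genes, Gm15970 and Gm32312, both on the opposite strand.

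On the TPM scale, which corrects for transcript length, Fndc5 was the most abundant member in every group, from 34.3 ± 14.0 (SD, n = 5) in 3mTSCmKO to 71.6 ± 12.2 in 3mCON+RM. Ostn and Il15 stood next in all groups but 3mTSCmKO+RM, where Metrnl was above Ostn. In 9mCON the order was Fndc5 at 63.1 ± 9.55 TPM, Ostn at 45.1 ± 6.04, Il15 at 14.0 ± 3.21, Metrnl at 2.62 ± 0.831, Apln at 1.68 ± 0.425, Gdf15 at 0.103 ± 0.0877 and Fgf21 at 0. The libraries did not overlap between neighbors in this order, except for Metrnl with Apln and Gdf15 with Fgf21. In 9mTSCmKO the order changed: Gdf15, at 7.66 ± 4.60 TPM, ranked 4 of 7, with libraries overlapping those of Il15 above and Metrnl below, and Apln was last at 0.477 ± 0.458. In 3mCON, 3mCON+RM, 9mCON and 9mCON+RM no library had more than 3 counts of Gdf15 or more than 1 of Fgf21, so these hormones were at the detection floor in control muscle at this depth.

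Differences were tested for every gene that reached 1 CPM in at least 5 libraries, 13543 genes, in a single edgeR quasi-likelihood fit with Benjamini-Hochberg adjustment, and a gene was called at an adjusted p under 0.05. Fgf21 did not reach this filter, and Gdf15 reached it only through the 5 libraries of 9mTSCmKO, so that it had to differ somewhere. The counts of members below for pairs of groups with 9mTSCmKO include Gdf15, whose calls there the filter favored. Of the 6 tested members, 5 were called in 9mTSCmKO against 9mCON (2 higher, 3 lower), where 37.9% of all genes were called, and 2 in 3mTSCmKO against 3mCON, where 19.8% were. Rapamycin in the knockout gave 4 calls at 9 months, with 32.6% of all genes called, and 2 at 3 months, with 23.6%. In controls rapamycin gave 1 call at 9 months, with 11.8% of all genes called, and 0 at 3 months, with 0.679%. In that last comparison 1 member, Apln, had an unadjusted p under 0.05 in edgeR, and DESeq2 called 0 as well.

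Rapamycin-treated knockouts differed from rapamycin-treated controls in 4 members at 9 months, beside 20.6% of all genes, and in 3 at 3 months, with Il15 higher (5.67% of all genes higher) and Fndc5 and Ostn lower (4.36%). Against untreated controls, 4 members differed at 9 months (31.9% of all genes) and 3 at 3 months (16.7%). Between ages, 3 members differed in the knockout (37.4%) and 1 in controls (1.02%). The genotype difference changed with age for 0 members (4.94% of all genes called). The rapamycin difference depended on genotype for 1 member at 9 months (4.87%) and 0 at 3 months (3.45%). Libraries of the groups compared did not overlap for 3 tested members in 9mTSCmKO against 9mCON (16.0% of all genes), for 2 in 3mTSCmKO against 3mCON (19.6%) and for 4 in 9mTSCmKO+RM against 9mTSCmKO (15.1%).

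**Figure D1:**
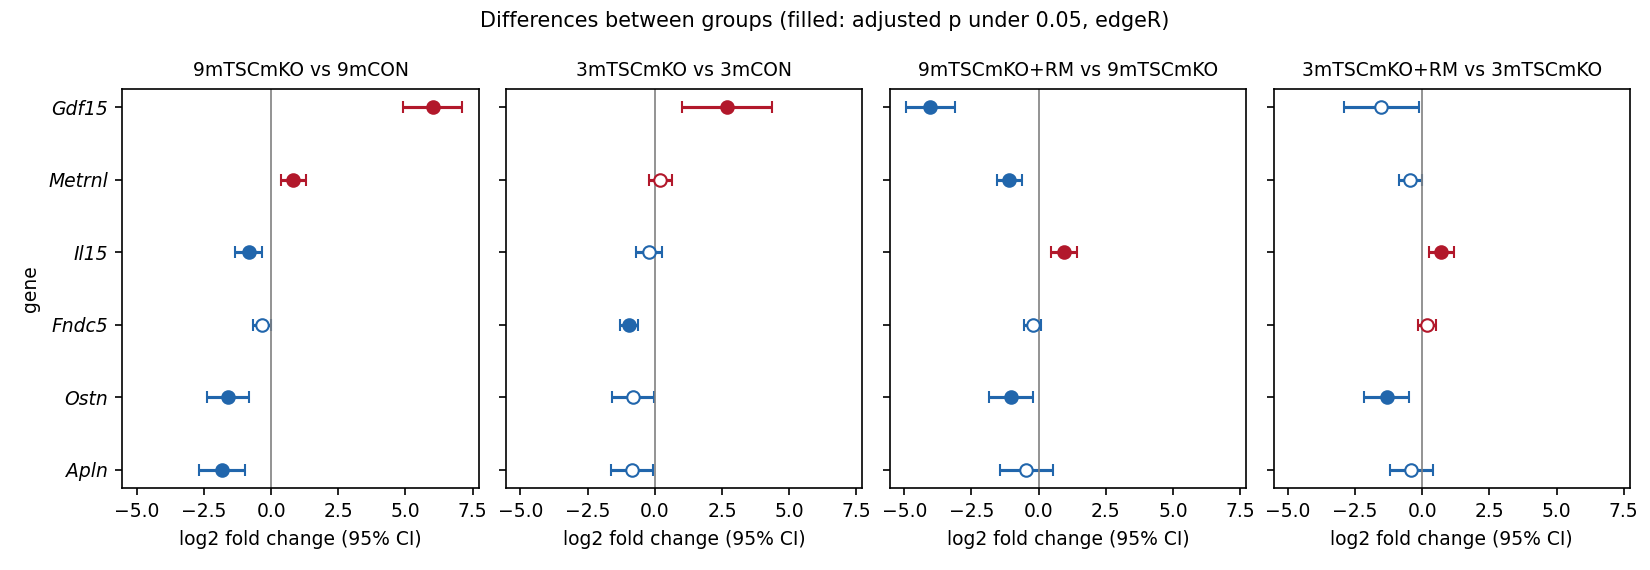
Log2 fold change (x axis, with 95% confidence interval) of the 6 tested members (y axis) in 4 comparisons, red where higher and blue where lower in the first group, filled where the edgeR adjusted p was under 0.05. Gdf15 stands at 6.02 and 2.68 in the knockout at 9 and 3 months and at -4.03 under rapamycin at 9 months, and the other members stay within 2 log2 units of 0.

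Gdf15 had the largest fold change in 9mTSCmKO of the 6 members that passed the filter. It passed only through the 9mTSCmKO libraries, so the filter favored calls between that group and others. The p-values of Gdf15 in comparisons with 9mTSCmKO are therefore a description and not independent support. Its counts in 9mTSCmKO were 198, 61, 187, 43 and 85 in libraries 1 to 5, and in 9mCON 2, 3, 0, 1 and 1. Every 9mTSCmKO library stood above every library of the other 7 groups, and within 9mTSCmKO libraries 1 and 3 were well above libraries 2, 4 and 5. On the CPM scale the mean was 6.11 ± 3.92 (SD, n = 5) in 9mTSCmKO and 0.0901 ± 0.0869 in 9mCON. The log2 fold change was 6.02 ± 0.55 (SE, edgeR adjusted p = 2.3e-11). The ratio of summed counts was 69.7, with an exact 95% interval of 33.6 to 174 that covers counting error only, as do all intervals of count ratios here.

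At 3 months the same difference was smaller and rested on few reads. The counts were 3, 2, 4, 10 and 7 in 3mTSCmKO and 0, 1, 1, 1 and 0 in 3mCON. All 5 knockout libraries were above all 5 controls, in CPM as in counts. The log2 fold change was 2.68 ± 0.84 (SE, edgeR adjusted p = 0.0186), and the ratio of summed counts 7.83 (2.4 to 40.4). The call was lost without library 4 of 3mCON (edgeR adjusted p = 0.0521) or of 3mTSCmKO (0.0508), and with limma on log2(TPM + 1) (0.285).

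Between ages, Gdf15 was 25.5-fold higher in 9mTSCmKO than in 3mTSCmKO (log2 fold change 4.67 ± 0.46 SE, edgeR adjusted p = 9.13e-10). In controls the age difference was not called (1.34 ± 1.04, edgeR adjusted p = 0.519), with all 10 libraries at the floor. The difference between the genotype effects at the 2 ages was 3.33 ± 1.57 on the log2 scale and was not called by edgeR (adjusted p = 0.231). With limma on log2(TPM + 1) it was 2.52 and was called (adjusted p = 4.25e-09). With controls at the floor, the added 1 holds their values near 0 on that scale, so this value rests mainly on the knockout groups.

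Rapamycin lowered Gdf15 in the knockout at 9 months. Counts in 9mTSCmKO+RM were 8, 3, 7, 3 and 8, all below the lowest 9mTSCmKO library. The log2 fold change was -4.03 ± 0.45 (SE, edgeR adjusted p = 9.61e-09), and the ratio of summed counts put vehicle 16.7-fold (11.5 to 25.1) above rapamycin. At 3 months counts under rapamycin were 0, 0, 4, 2 and 2 and overlapped those of 3mTSCmKO, with a log2 fold change of -1.53 ± 0.69 that was not called (edgeR adjusted p = 0.108) except without library 3 of 3mTSCmKO+RM (-2.19, adjusted p = 0.0437). In controls Gdf15 was at the floor with and without rapamycin. The difference between the rapamycin effects of the 2 genotypes at 9 months was -3.03 ± 1.52 (edgeR adjusted p = 0.256). It was called by limma on log2(TPM + 1) (-2.33, adjusted p = 5.37e-08), a scale that again holds the controls near 0.

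Under rapamycin Gdf15 did not return to the level of rapamycin-treated controls at 9 months. Counts in 9mCON+RM were 2, 0, 1, 0 and 0, and the libraries did not overlap those of 9mTSCmKO+RM. The log2 fold change was 2.99 ± 0.83 (SE, edgeR adjusted p = 0.00721), with a ratio of summed counts of 9.07 (2.81 to 46.5), and limma on log2(TPM + 1) did not call it (adjusted p = 0.0526). Without library 1 of 9mCON+RM, which held 2 of that group's 3 counts, it was 3.99 (edgeR adjusted p = 0.0042). Against untreated 9mCON it was 1.99 ± 0.70 (edgeR adjusted p = 0.0273), and the groups overlapped. The latter call was lost without library 3, 4 or 5 of 9mCON or library 1 or 5 of 9mTSCmKO+RM (edgeR adjusted p from 0.0581 to 0.0682), and with insert size as a term (0.0722, a fit that drops library 5 of 9mTSCmKO+RM, which has no insert size) or with limma on log2(TPM + 1) (0.0886). At 3 months 3mTSCmKO+RM was 1.11 ± 1.02 above 3mCON+RM, which was not called (edgeR adjusted p = 0.609).

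**Figure D2:**
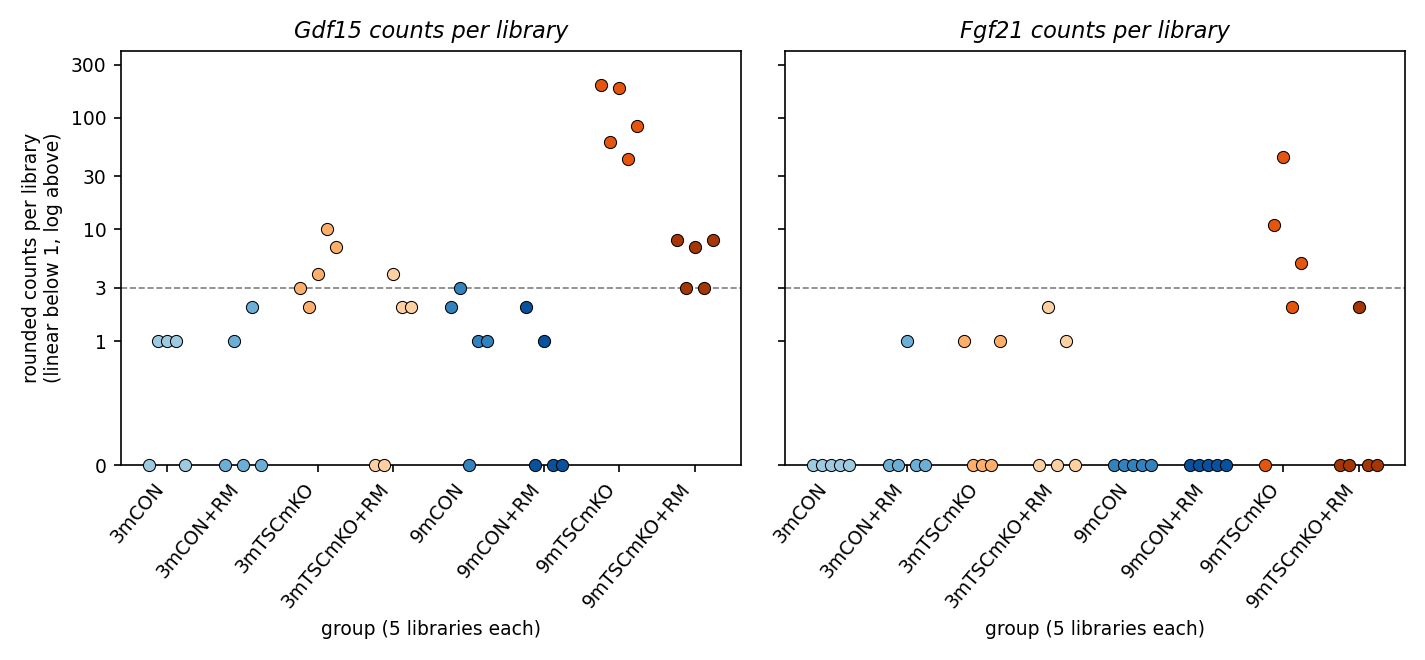
Rounded counts of Gdf15 (left) and Fgf21 (right) in each of the 40 libraries by group (y axis linear below 1 and logarithmic above; dashed line at 3 counts, the floor used here). The 5 Gdf15 points of 9mTSCmKO lie between 43 and 198 counts and every other library at 10 or below, and 3 Fgf21 points, all of 9mTSCmKO, lie above the line.

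Fgf21 was near the floor everywhere except in 9mTSCmKO. Its counts there were 0, 11, 45, 2 and 5 in libraries 1 to 5, and 0 in each library of 3mCON, 9mCON and 9mCON+RM. The remaining 4 groups had 1 to 3 counts each in all 5 libraries together. In all, 30 of 40 libraries had no Fgf21 read, and library 3 held 71.4% of the counts of 9mTSCmKO while library 1 held none.

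The summed counts of Fgf21 in 9mTSCmKO, 63, were at least 17.9-fold higher than a floor of 3 counts summed over the 5 libraries of 9mCON. That floor is lower than the 3 counts per library used elsewhere here, with which the bound would be smaller. Without library 3 of 9mTSCmKO the bound was 6.3-fold. The exact two-sided permutation test of mean CPM over the 10 libraries gave p = 0.0476, and 0.19 after Benjamini-Hochberg adjustment over 12 comparisons. The smallest possible p of this test, 0.00794, holds only without ties. With the ties at 0 here, no arrangement of these values gives a p below 0.0476. The test could therefore not pass the threshold after adjustment, and nothing is concluded from its not doing so. The groups overlapped at 0. Without the filter on low counts, when edgeR tests 22597 genes, Fgf21 was called in this comparison (log2 fold change 6.65 ± 1.38 SE, adjusted p = 0.000441, beside 24.2% of all genes), with a fold change that depends on the prior count.

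Rapamycin-treated 9mTSCmKO+RM libraries had 0, 0, 2, 0 and 0 counts of Fgf21, which overlapped vehicle at 0 and 2 counts. The ratio of summed counts put vehicle 26.5-fold (7.05 to 224) above rapamycin. The exact permutation test gave p = 0.0476 (adjusted 0.19), and edgeR without the filter called the fall (-4.44 ± 1.08 SE, adjusted p = 0.00327, beside 18.8% of all genes). In 9mTSCmKO against 3mTSCmKO the count ratio was 36.4 (9.67 to 307), with the same exact permutation p of 0.0476 (adjusted 0.19). In the 9mTSCmKO libraries Gdf15 and Fgf21 did not rank together throughout. Library 1 had the most Gdf15 counts and none of Fgf21. Library 3 had the highest CPM of both genes.

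Metrnl was higher in the knockout than in controls at 9 months and fell in the knockout under rapamycin. The libraries of 9mTSCmKO had 3.28, 2.18, 3.58, 3.46 and 2.76 CPM and those of 9mCON 1.77, 1.89, 2.44, 1.26 and 1.39. All but library 2 of 9mTSCmKO were above every control library. The log2 fold change was 0.82 ± 0.23 (SE, edgeR adjusted p = 0.00435). Under rapamycin the 9mTSCmKO+RM libraries, from 0.939 to 2.08 CPM, lay below all vehicle libraries, a log2 fold change of -1.09 ± 0.23 (edgeR adjusted p = 0.000376).

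In 3mTSCmKO the Metrnl mean was 3.33 ± 0.885 CPM (SD, n = 5), against 2.94 ± 0.625 in 3mCON, which was not called (edgeR adjusted p = 0.555, 95% interval of the log2 difference -0.23 to 0.64). Rapamycin differences at 3 months and in 9-month controls pointed down and were not called (3mTSCmKO -0.44 ± 0.22, edgeR adjusted p = 0.14, and 9mCON -0.62 ± 0.25, adjusted p = 0.104). The rapamycin effect of the knockout at 9 months was not shown to differ from that of controls (difference -0.46 ± 0.34, edgeR adjusted p = 0.471). Between ages Metrnl was -0.14 ± 0.21 in the knockout (edgeR adjusted p = 0.624) and -0.76 ± 0.23 in controls, from 2.94 to 1.75 CPM (adjusted p = 0.0791), neither called, and the genotype effects at the 2 ages were not shown to differ (0.61 ± 0.31, adjusted p = 0.278). Limma on log2(TPM + 1) called the age difference in controls (-0.72, adjusted p = 0.0414). Metrnl counts were modest, from 12 to 140 per library.

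Il15 was lower in the knockout at 9 months. The knockout libraries had 5.10, 3.71, 6.70, 4.16 and 4.07 CPM, and the control libraries 7.56, 12.4, 6.17, 9.61 and 6.61. Knockout library 3 lay among the lower controls, and the remaining knockout libraries were below all controls. On the log2 scale the difference was -0.84 ± 0.24 (SE, edgeR adjusted p = 0.00646). At 3 months the difference was -0.20 ± 0.24 and not called (edgeR adjusted p = 0.613).

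Rapamycin raised Il15 in knockout muscle. At 9 months the treated libraries had 13.4, 8.07, 7.02, 9.72 and 7.87 CPM, all above the 9mTSCmKO libraries, a log2 fold change of 0.95 ± 0.24 (SE, edgeR adjusted p = 0.00264). At 3 months the treated libraries had 16.6, 9.32, 9.22, 7.58 and 7.23 CPM, against 4.02, 4.64, 6.53, 9.21 and 5.76 with vehicle, and the groups overlapped through library 4 of 3mTSCmKO. That difference was 0.71 ± 0.24 (edgeR adjusted p = 0.0242). It was lost without library 1 of 3mTSCmKO+RM (0.45, edgeR adjusted p = 0.168) or library 1, 2 or 5 of 3mTSCmKO (adjusted p from 0.05 to 0.0697), and when only these groups were fitted (0.0624). In the same comparison the 3 satellite cell markers summed to 17.5 to 28.3 TPM with rapamycin and 7.50 to 11.4 with vehicle, without overlap, the 5 fibroblast markers to 287 to 665 and 199.8 to 371, and the 6 macrophage markers to 77.9 to 141 and 51.2 to 111. Their part in the Il15 value was not tested.

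In control muscle the Il15 differences with rapamycin pointed down: 9mCON+RM libraries ran from 3.26 to 8.50 CPM, with 6.17 to 12.4 in 9mCON (log2 fold change -0.62 ± 0.25, edgeR adjusted p = 0.099), and 3mCON+RM 5.53 ± 1.13 against 7.03 ± 0.864 in 3mCON (-0.36 ± 0.25, adjusted p = 0.751). Neither was called, although the 9-month difference was without library 5 of 9mCON+RM (-0.83, edgeR adjusted p = 0.0351). The rapamycin effect differed between genotypes at 9 months, by 1.57 ± 0.35 on the log2 scale (SE, edgeR adjusted p = 0.00556), a call kept in each of 20 fits that left out a library. At 3 months the difference between the effects was 1.08 ± 0.34 and was not called (edgeR adjusted p = 0.0738), although it was called by DESeq2 (0.0457), when only these groups were fitted (0.0411) and without library 4 of 3mTSCmKO (0.0231). Between 9mCON+RM and 9mCON, where 11.8% of all genes were called, 5 of 5 fibroblast, 5 of 6 macrophage, 4 of 5 tendon and 1 of 4 Schwann cell markers were lower. There 1 of 3 satellite cell markers was higher. Their part in the Il15 values was not tested.

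Il15 was higher in rapamycin-treated knockouts than in rapamycin-treated controls, by 0.73 ± 0.24 at 9 months (edgeR adjusted p = 0.0284) and 0.88 ± 0.24 at 3 months (adjusted p = 0.0142). The 3-month groups did not overlap and the 9-month groups did. The 9-month call was lost without library 2, 3 or 4 of 9mCON+RM or library 1 or 4 of 9mTSCmKO+RM (edgeR adjusted p from 0.0548 to 0.109). The 3-month call was lost without library 4 of 3mCON+RM (0.0623) or library 1 of 3mTSCmKO+RM (0.105). Against untreated controls the treated knockouts did not differ in Il15 by the test, with 95% intervals of -0.37 to 0.60 at 9 months and 0.03 to 0.99 at 3 months (edgeR adjusted p = 0.76 and 0.142).

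Fndc5 was the abundant member whose fall was seen in the young knockout. In 3mTSCmKO the libraries had 40.3, 26.9, 47.4, 77.5 and 63.4 CPM, and in 3mCON 94.5, 100.5, 116, 104 and 86.1. Every knockout library was below every control library, with a log2 fold change of -0.97 ± 0.16 (SE, edgeR adjusted p = 2.42e-05). At 9 months the means were 77.5 ± 13.3 CPM in 9mTSCmKO and 98.0 ± 14.3 in 9mCON (SD, n = 5), a difference of -0.34 ± 0.16 that was not called (edgeR adjusted p = 0.0987) but was called without library 4 of 9mTSCmKO (-0.44, adjusted p = 0.038).

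Rapamycin did not change Fndc5 past the threshold in any of the 4 comparisons, with log2 fold changes from -0.22 ± 0.16 (9mTSCmKO, edgeR adjusted p = 0.303) to 0.19 ± 0.16 (3mTSCmKO, adjusted p = 0.444). The treated knockouts stayed below treated controls, by -0.66 ± 0.16 at 9 months (edgeR adjusted p = 0.00265) and -0.87 ± 0.16 at 3 months (adjusted p = 0.000307). They also stayed below untreated controls, by -0.56 ± 0.16 and -0.78 ± 0.16 (edgeR adjusted p = 0.0073 and 0.000608), and none of these 4 pairs of groups overlapped. In 9mTSCmKO Fndc5 was 0.60 ± 0.16 above 3mTSCmKO (edgeR adjusted p = 0.00426), a call lost when only these groups were fitted (0.0702). The genotype effects at the 2 ages were not shown to differ (0.63 ± 0.23, edgeR adjusted p = 0.107), although they were called different without library 4 of 3mTSCmKO (0.87, adjusted p = 0.0105) and by limma on log2(TPM + 1) (0.80, adjusted p = 0.0438).

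Ostn was lower in the knockout at 9 months. The libraries had 8.95, 12.2, 15.9, 13.0 and 10.1 CPM in 9mTSCmKO and 36.0, 48.8, 29.6, 30.9 and 37.0 in 9mCON, with a wide gap between the groups and a log2 fold change of -1.60 ± 0.38 (SE, edgeR adjusted p = 0.00111). At 3 months 1 library decided the result: 3mTSCmKO had 4.35, 1.89, 2.26, 21.3 and 3.06 CPM, and 3mCON 8.51, 8.28, 21.3, 10.1 and 11.2. Knockout library 4 stood with the highest control library, and the remaining 4 were below all controls. With all libraries the difference was -0.81 ± 0.39 and not called (edgeR adjusted p = 0.146), and without library 4 of 3mTSCmKO it was -2.06 (adjusted p = 3.26e-07). Limma on log2(TPM + 1) called it with all libraries (-1.24, adjusted p = 0.00635).

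Library 4 of 3mTSCmKO was also the highest of its group for Fndc5, Il15, Metrnl and Gdf15. Its 6 adipocyte markers summed to 239 TPM, against 42.4 to 77.7 in the remaining 4 libraries of the group, and its 4 Schwann cell markers to 217 TPM, against 60.3 to 103. Library 3 of 3mCON, the highest control for Ostn, had sums of 238 TPM, against 27.8 to 76.5 in the rest of its group, and 208 TPM, against 81.7 to 133. Library 5 of 3mTSCmKO+RM had an adipocyte marker sum of 233.5 TPM, the highest of its group, with Ostn at 2.73 CPM, among the others of its group. The part of these markers in the Ostn values was not tested. Between ages, Ostn was 1.61 ± 0.38 higher in 9mCON than in 3mCON (edgeR adjusted p = 0.0307), without overlap. That call was lost with insert size as a term (1.37, adjusted p = 0.214), without the filter (0.0645), and without library 1, 2 or 4 of 3mCON or library 1 or 2 of 9mCON (edgeR adjusted p from 0.0537 to 0.0989). In the knockout the age difference was 0.82 ± 0.39 and not called (edgeR adjusted p = 0.0941), and 2.09 without library 4 of 3mTSCmKO (adjusted p = 3.33e-07), and limma on log2(TPM + 1) called it (1.32, adjusted p = 0.00239).

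Under rapamycin Ostn in the 9-month knockout was lower still, not closer to controls. The treated libraries had 7.12, 6.51, 4.46, 6.76 and 4.82 CPM, all below the vehicle libraries, at a log2 fold change of -1.02 ± 0.40 (SE, edgeR adjusted p = 0.0461). The call was marginal: it was lost without the filter (0.0899), with insert size as a term (0.0894), and in 8 of 10 fits without 1 library (edgeR adjusted p from 0.0518 to 0.103), those without libraries 2, 3 and 4 of 9mTSCmKO and each library of 9mTSCmKO+RM. At 3 months the difference of -1.33 ± 0.42 (edgeR adjusted p = 0.0178) shrank to -0.08 (adjusted p = 0.887) without library 4 of 3mTSCmKO, and its adjusted p was 0.0502 without library 4 of 3mTSCmKO+RM, 0.187 when only these groups were fitted and 0.271 by limma on log2(TPM + 1).

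In controls Ostn was 36.0 ± 9.80 CPM with rapamycin and 36.5 ± 7.61 without at 9 months (SD, n = 5, edgeR adjusted p = 0.981, 95% interval of the log2 difference -0.77 to 0.73). The difference between the rapamycin effects of knockout and control was not called (-1.01 ± 0.54, edgeR adjusted p = 0.294). Treated knockouts were below treated controls by -2.61 ± 0.41 at 9 months (edgeR adjusted p = 7.76e-06) and by -1.38 ± 0.43 at 3 months (adjusted p = 0.0322). The latter was lost without the filter (0.0683) and without library 1 or 5 of 3mCON+RM or library 3, 4 or 5 of 3mTSCmKO+RM (edgeR adjusted p from 0.0592 to 0.0891). Against untreated controls they were lower by -2.62 ± 0.41 and -2.14 ± 0.42 (edgeR adjusted p = 4.63e-06 and 0.000313).

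Apln fell in the knockout at 9 months. The libraries had 0, 0.765, 0.782, 0.404 and 2.06 CPM in 9mTSCmKO, which are 0, 13, 14, 7 and 47 counts, and 3.31, 2.64, 2.36, 4.04 and 2.48 CPM in 9mCON. No knockout library reached the lowest control library, and library 5 stood apart from the remaining knockouts. The difference was -1.84 ± 0.42 on the log2 scale (SE, edgeR adjusted p = 0.000661), and -2.62 without library 5 of 9mTSCmKO (adjusted p = 1.18e-05). At 3 months the difference was -0.86 ± 0.38 and not called (edgeR adjusted p = 0.114), but it was called with insert size as a term (-1.04, adjusted p = 0.0455) and by limma on log2(TPM + 1) (adjusted p = 0.0185).

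Apln was the only tested member called for rapamycin in control muscle. At 9 months the libraries of 9mCON+RM had 1.22, 1.18, 1.23, 0.946 and 0.945 CPM, all below 9mCON, with a log2 fold change of -1.42 ± 0.42 (SE, edgeR adjusted p = 0.0221), lost without library 4 of 9mCON (0.0558) or library 5 of 9mCON+RM (0.0548). In these comparisons markers of other cells moved too: the 5 fibroblast markers summed to 165 to 426 TPM in 9mCON, 25.9 to 114 in 9mCON+RM and 53.2 to 172 in 9mTSCmKO, and the 6 macrophage markers to 43.8 to 129, 11.6 to 40.5 and 52.5 to 97.3. The 5 tendon markers summed to 32.3 to 280 TPM in 9mCON, at most 32.7 in 9mCON+RM and 15.5 to 38.4 in 9mTSCmKO, and 4 of the 5 were lower in 9mCON+RM than in 9mCON. In that comparison 11.8% of all genes were called in either direction. There 5 of 5 fibroblast, 5 of 6 macrophage and 1 of 4 Schwann cell markers were also lower. No fast fiber, adipocyte, endothelial or red blood cell marker was called. The 3 satellite cell markers had a median sum of 9.56 TPM in 9mCON, all libraries below the 20.0 to 22.2 of 9mCON+RM, and 5.65 to 11.1 in 9mTSCmKO, with 1 of the 3 higher in 9mCON+RM than in 9mCON. The 4 endothelial markers overlapped, at 83.2 to 157, 90.3 to 167 and 84.1 to 141 TPM. No marker of these lists was at 0 in every library, and their part in the Apln values was not tested.

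In the knockout rapamycin left Apln without a call at both ages (-0.46 ± 0.49 at 9 months, edgeR adjusted p = 0.497, and 0.29 without library 5 of 9mTSCmKO, and -0.40 ± 0.40 at 3 months, adjusted p = 0.508). Treated knockouts were below untreated controls, by -2.30 ± 0.45 at 9 months (edgeR adjusted p = 0.000124) and -1.26 ± 0.39 at 3 months (adjusted p = 0.0208, lost without library 5 of 3mCON at 0.0926 or library 2 of 3mTSCmKO+RM at 0.0665). Against treated controls the differences were -0.88 ± 0.49 and -0.34 ± 0.41 and not called (edgeR adjusted p = 0.212 and 0.721). Apln was lower in 9mTSCmKO than in 3mTSCmKO (-1.32 ± 0.42, edgeR adjusted p = 0.0136), a call lost with insert size as a term (-0.67, adjusted p = 0.401), when only these groups were fitted (0.128) and without library 5 of 3mTSCmKO (0.0524). It was -2.09 without library 5 of 9mTSCmKO (edgeR adjusted p = 0.000376). Without library 5 of 9mTSCmKO the genotype effects at the 2 ages were called different (-1.77, edgeR adjusted p = 0.0469), which with all libraries they were not (-0.98 ± 0.57, adjusted p = 0.343).

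**Figure D3:**
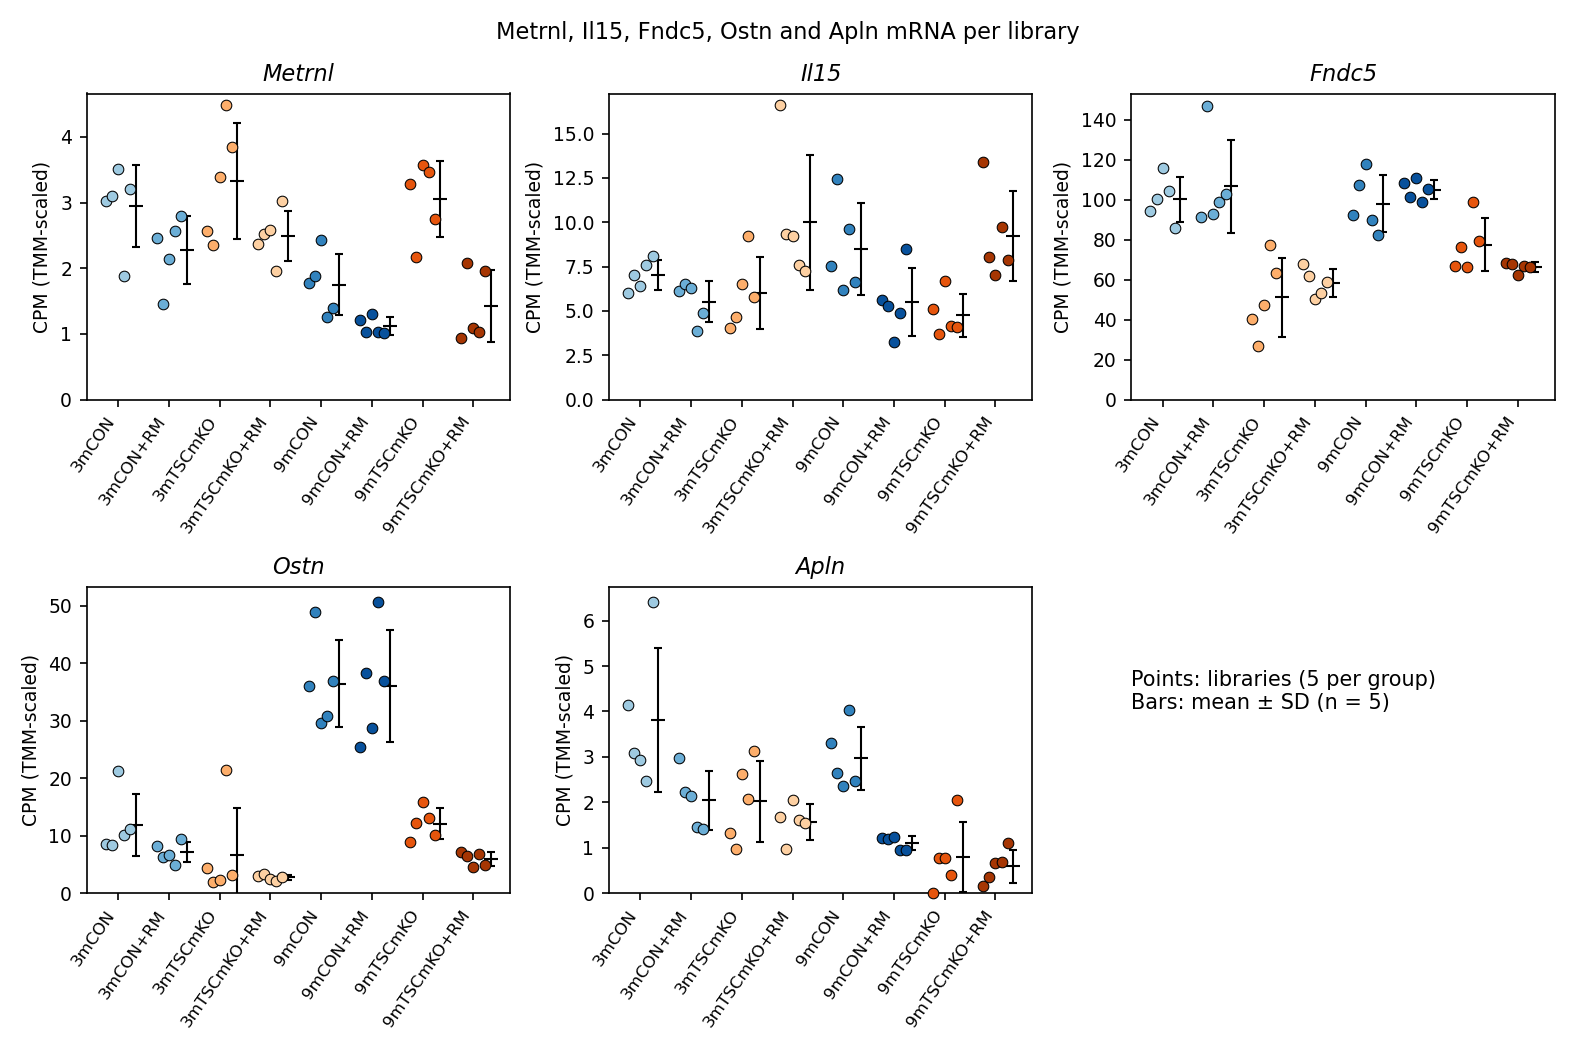
CPM (y axis, from 0) of the 5 members other than Gdf15 and Fgf21 in each library, by group (x axis), with mean ± SD (n = 5) beside the points; the SD bar of Ostn in 3mTSCmKO is cut at 0. Ostn separates the 9-month groups, from 29.6 to 48.8 CPM in 9mCON and from 8.95 to 15.9 in 9mTSCmKO, and the lone high point of 3mTSCmKO is library 4 at 21.3 CPM.

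Most tested genes of the integrated stress response were higher in the knockout than in controls at both ages. Of 17 tested genes of this list, 11 were higher and 1 lower in 9mTSCmKO than in 9mCON (19.1% of all genes higher, 18.9% lower), with a median log2 fold change of 0.97 against -0.02 over all genes. At 3 months 10 were higher and 0 lower (11.4% and 8.32% of all genes), with a median of 0.70. The largest rises at 9 months were Mthfd2, a mitochondrial folate enzyme (3.21 ± 0.24 SE, edgeR adjusted p = 1.07e-13), and Psat1, an enzyme of serine synthesis (3.15 ± 0.26, adjusted p = 2.8e-12). The lower gene was Chac1, which degrades glutathione (-1.12 ± 0.34, edgeR adjusted p = 0.00938). At 3 months Ddit4, an inhibitor of mTORC1 (3.23 ± 0.54, edgeR adjusted p = 3.23e-05), and Mthfd2 (2.68 ± 0.23, adjusted p = 2.61e-11) led. Atf4 itself was not called at 9 months (0.26 ± 0.14, edgeR adjusted p = 0.131). Between 9mTSCmKO and 3mTSCmKO, where Gdf15 was higher at 9 months, 7 genes of the list were higher and 4 lower (37.4% of all genes called in either direction).

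Rapamycin in the knockout lowered 12 of the 17 and raised 0 at each age (at 9 months 16.8% of all genes were lower and 15.8% higher, and at 3 months 13.0% and 10.6%). The largest falls at 9 months were Asns, asparagine synthetase (-2.43 ± 0.29 SE, edgeR adjusted p = 3.53e-08), and Ddit4 (-2.38 ± 0.53, adjusted p = 0.000776). At 3 months they were Ddit4 (-3.25 ± 0.54, edgeR adjusted p = 2.79e-05) and Mthfd2 (-1.69 ± 0.22, adjusted p = 2.12e-07). Gdf15 was not called in that comparison at 3 months (edgeR adjusted p = 0.108). In controls 2 of 17 fell at each age, Nupr1 and Ddit3 at 9 months, where 11.8% of all genes were called in either direction, and Atf5 and Cebpg at 3 months, where 0.679% were. Cebpb, on the same list, was not analysed here. The medians of the list under rapamycin were -0.84 and -1.04 in the knockout at 9 and 3 months, and -0.35 in controls at each age. The genotype effect was larger at 9 than at 3 months for Psat1 (2.02 ± 0.36, edgeR adjusted p = 0.000561) and Asns (1.47 ± 0.40, adjusted p = 0.0248), and for no other gene of the list by this test.

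**Figure D4:**
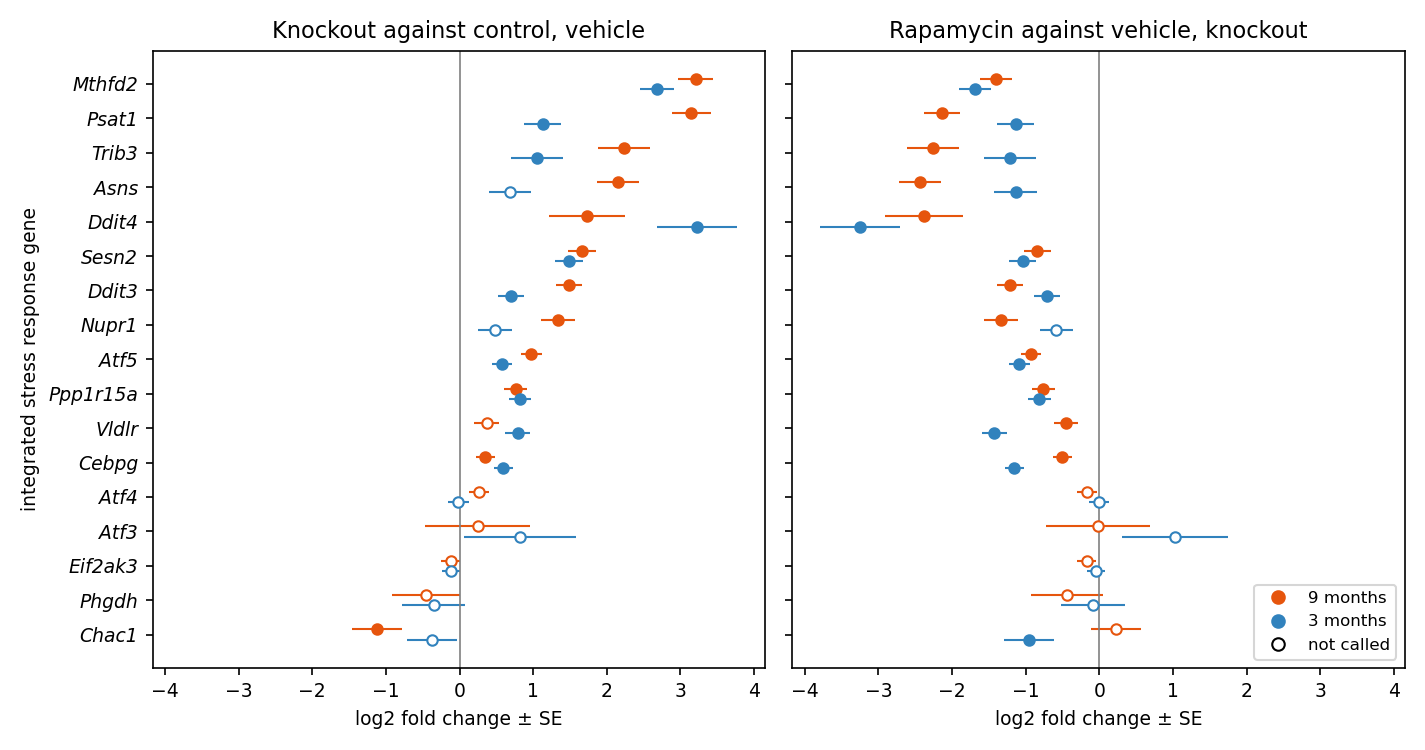
Log2 fold change ± SE (x axis) of the 17 tested genes of the integrated stress response list (y axis) for knockout against control with vehicle (left) and rapamycin against vehicle in the knockout (right), at 9 months (orange) and 3 months (blue), open where not called by edgeR. On the left 11 genes at 9 months and 10 at 3 months are filled to the right of 0, and on the right 12 at each age are filled to the left of 0.

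Of the receptors of these factors, 10 were tested. In 9mTSCmKO 6 were lower than in 9mCON and 0 higher (18.9% and 19.1% of all genes), with the largest falls for Ret, the GDF15 coreceptor (-1.71 ± 0.28 SE, edgeR adjusted p = 7.43e-06), and Npr3, the clearance receptor that binds osteocrin (-0.97 ± 0.27, adjusted p = 0.0045). In 3mTSCmKO 2 were lower (8.32% of all genes), Npr3 (-1.14 ± 0.27, edgeR adjusted p = 0.00183) and Il15ra, which presents IL-15 (-0.43 ± 0.14, adjusted p = 0.0209). Rapamycin in the knockout raised Npr3 at both ages (1.57 ± 0.27 at 9 months, edgeR adjusted p = 2.35e-05, and 1.43 ± 0.27 at 3 months, adjusted p = 0.000114). It also raised Npr2 at both ages (0.72 ± 0.09 at 9 months, edgeR adjusted p = 3.39e-08, and 0.42 ± 0.08 at 3 months, adjusted p = 0.000229) and Npr1 at 3 months (0.50 ± 0.15, adjusted p = 0.0107), the natriuretic peptide receptors that signal, so that 2 receptors were higher at 9 months and 3 at 3 months (15.8% and 10.6% of all genes). In 9-month controls rapamycin raised Npr3 (1.29 ± 0.26, edgeR adjusted p = 0.00105) and lowered Ret, from 6.34 to 2.61 CPM (-1.30 ± 0.28, adjusted p = 0.00187), and called no other receptor (11.8% of all genes in either direction). Gfral had at most 1 count in any library and Klb at most 13, Il2rb did not reach the filter, and Aplnr was not analysed here.

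Of 25 tested genes for further muscle-secreted factors, 6 were higher and 9 lower in 9mTSCmKO (19.1% and 18.9% of all genes), led by Angptl4, an inhibitor of lipoprotein lipase (1.62 ± 0.56 SE, edgeR adjusted p = 0.0231), and Inhbb, an activin subunit (1.58 ± 0.34, adjusted p = 0.000283), and by Il18 (from 1.10 to 0.271 CPM, adjusted p = 0.00217) and Fgf2 (-1.23 ± 0.18, adjusted p = 4.95e-07). At 3 months 3 were higher and 4 lower (11.4% and 8.32% of all genes), led by Ctsb (0.66 ± 0.11, edgeR adjusted p = 9.34e-06) and Metrn (0.49 ± 0.15, adjusted p = 0.0171), and by Vegfa (from 281 to 140.3 CPM, adjusted p = 7.95e-08) and Fst, an antagonist of activin and myostatin (-0.97 ± 0.27, adjusted p = 0.00784). Rapamycin in 9mTSCmKO raised Fst alone (1.60 ± 0.27, edgeR adjusted p = 1.95e-05) and lowered 5 (15.8% of all genes were higher and 16.8% lower), with the largest falls for Angptl4 (-1.69 ± 0.57, adjusted p = 0.0213) and Inhbb (-1.37 ± 0.33, adjusted p = 0.00145). In 3mTSCmKO it raised 2, Fst (1.10 ± 0.27, edgeR adjusted p = 0.00222) and Igf1 (0.89 ± 0.26, adjusted p = 0.0102), and lowered 2 (10.6% and 13.0% of all genes), Metrn (-0.95 ± 0.15, adjusted p = 7.66e-06) and Nampt (-0.62 ± 0.13, adjusted p = 0.000286).

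Of 10 transcription regulators linked to these genes, 1 was higher and 2 lower in 9mTSCmKO (19.1% and 18.9% of all genes): Mef2c (0.91 ± 0.17 SE, edgeR adjusted p = 3.5e-05), and Nr4a1 (-1.47 ± 0.34, adjusted p = 0.000888) and Tfe3 (-0.43 ± 0.11, adjusted p = 0.00183). At 3 months, where 11.4% of all genes were higher and 8.32% lower, Mef2c was higher (0.56 ± 0.17, edgeR adjusted p = 0.0133) and Ppargc1a, a coactivator linked to Fndc5 expression in exercise, lower (-1.13 ± 0.35, adjusted p = 0.0172). Rapamycin called 0 of the 10 in the knockout at 9 months (32.6% of all genes). At 3 months it lowered 2 (13.0% of all genes), Ppara (-0.92 ± 0.34, edgeR adjusted p = 0.046) and Tfeb (-0.42 ± 0.11, adjusted p = 0.00547).

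Markers of further cell types were counted beside these results. In 9mTSCmKO against 9mCON 0 markers of fast fibers were higher and 3 of 7 lower, and the lower ones numbered 2 of 6 for adipocytes, 1 of 4 for endothelium, 3 of 5 for fibroblasts, 1 of 4 for Schwann cells and 4 of 5 for tendon, while 1 of 6 macrophage markers was higher (18.9% of all genes were lower and 19.1% higher). None of the 3 satellite cell or 4 red blood cell markers was called, the latter with a median log2 fold change of -1.90 (edgeR adjusted p from 0.0561 to 0.0718), and library 1 of 9mCON stood apart, with a red blood cell marker sum of 21020 TPM against 1064 to 3088 in the rest of its group. In 3mTSCmKO against 3mCON 1 of 5 tendon markers (Scx) was lower and no other marker was called (8.32% of all genes lower, 11.4% higher). The red blood cell markers had a median log2 fold change of 1.89 there (edgeR adjusted p from 0.0785 to 0.128), and library 3 of 3mTSCmKO stood apart at 28570 TPM, against 1377 to 2832 in the rest of its group. In 9mTSCmKO+RM against 9mTSCmKO (15.8% of all genes higher, 16.8% lower) 2 of 3 satellite cell markers were higher, summing to 18.1 to 24.7 TPM against 5.65 to 11.1, and 3 of 7 fast fiber markers were higher and 1 lower. There 1 of 6 macrophage markers (C1qa), 1 of 4 endothelial (Kdr) and 1 of 4 Schwann cell markers (S100b) were lower, with macrophage sums of 32.0 to 57.9 TPM against 52.5 to 97.3, and no adipocyte, fibroblast, tendon or red blood cell marker was called. In 3mTSCmKO+RM against 3mTSCmKO (10.6% higher, 13.0% lower) 1 marker each of macrophages (Cd68), fibroblasts (Col1a1), tendon (Scx) and satellite cells (Cdh15) was higher, 3 of 7 fast fiber markers were higher and 1 lower, and no marker of the remaining lists was called. Their part in the values of the secreted factors was not tested.

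Across the 40 libraries, and as a description only, since the libraries share groups, Fndc5 and Ostn had a Pearson correlation of 0.69 on the log2 CPM scale, and of 0.51 after group means were subtracted. The gene closest to Ostn was Slc25a4, the mitochondrial ADP/ATP carrier of muscle (0.84, and 0.23 within groups), and the gene closest to Fndc5 was Gm32200 (0.85 and 0.46). For Il15 it was Yipf7 (0.73 and 0.59) and for Metrnl Pip4k2a (0.80 and 0.39).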

How the data were processed

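Polyadenylated RNA of whole EDL muscles was sequenced by the authors as directional single-end reads of 50 bases, 1 library per sample, 5 per group. The deposited estimated counts were made by the authors by trimming with cutadapt 1.9.1 and pseudoalignment with kallisto 0.43.1 to protein-coding Ensembl transcripts of GRCm38; a read matching several transcripts was shared equally among them, so near-identical genes split reads, and counts were summed per gene. The values in the file are whole numbers, and they were treated as rounded. The deposited TPM values were derived by the authors from the same assignments by dividing by transcript length, and transcript TPM were summed per gene.

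Starting from these files, libraries were scaled by TMM, genes with at least 1 CPM in at least 5 libraries were kept (6 of the 7 members), and all 40 libraries were fitted by group with edgeR 4.0.16 (quasi-likelihood F-test, robust, two-sided) under R 4.3.3. Fgf21, below that filter, was tested by exact permutation of CPM over libraries. Alternatives used limma 3.58.1 on log2(TPM + 1) and log2(TPM + 0.1), DESeq2 1.42.0, other scalings, no filter, insert size from the labels as a term, the replicate number as a block, only the groups compared, and each library left out in turn. The edgeR script was tested on simulated data. Genes named beside the members were the 2 called genes of a list with the largest rise and the 2 with the largest fall in a comparison, and, for correlation, the closest gene of each member with at least 3 counts in every library; Gdf15, Fgf21 and Apln did not meet that minimum. The members, lists and tests were chosen with earlier results of these data known. The deposited columns hold single libraries, none identical to another, and counts were summed over the 5 libraries of a group only for the count ratios and their exact intervals. Promoter sequences are from RefSeq, and gene positions from GENCODE, both on GRCm38.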

Additional observations from a re-analysis of the deposited data

Results flagged for a closer look

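In 7 of 53 sets of 5 libraries, each set a member in a group, 1 library stood far from the other 4 by Dixon's criterion. Chance flags about 1 in 20 sets of continuous values, a rate that does not hold for sets of a few counts. For Fgf21 these were library 3 of 9mTSCmKO at 2.513 CPM, with the others from 0 to 0.647, and 2 libraries that had the only reads of their group: library 3 of 3mCON+RM at 0.1124 CPM, which is 1 count, and library 3 of 9mTSCmKO+RM at 0.1088 CPM, which is 2 counts. With the other 4 libraries at 0, any read meets the criterion, so nothing is read from these 2 sets. Il15 was 16.6 CPM in library 1 of 3mTSCmKO+RM, with the others at 7.23 to 9.32. Fndc5 was 147.2 CPM in library 2 of 3mCON+RM, with the others between 91.2 and 103.

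For Ostn the high libraries were library 3 of 3mCON, at 21.27 CPM with the others at 8.28 to 11.2, and library 4 of 3mTSCmKO, at 21.34 CPM with the others at 1.89 to 4.35. Without the latter, Ostn was called lower in 3mTSCmKO than in 3mCON, and the call between 3mTSCmKO+RM and 3mTSCmKO was lost.

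The response of Il15 to rapamycin at 9 months differed between knockout and control, by 1.566 on the log2 scale (edgeR adjusted p = 0.00556): 5 of 5 treated knockout libraries were above all vehicle knockouts, whereas in controls the difference pointed down and was not called.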

How the results depend on the processing

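No call of a member reversed. Over the alternatives other than leaving out a library, 776 of 810 fold changes of members kept their side of the threshold, 19 lost their call and 15 gained one. A fold change called in neither fit counted as kept even where its direction changed. Other scalings moved no count of called members. In 3mTSCmKO+RM against 3mTSCmKO, where 2 members were called, 1 was called with the replicate number as a block, 0 when only these groups were fitted, and 1 with limma on log2(TPM + 1) or log2(TPM + 0.1). In 9mTSCmKO against 3mTSCmKO (3 members) 1 was called when only these groups were fitted. In 9mCON against 3mCON (1 member) 0 were called without the filter, 0 with insert size as a term and 2 with limma on log2(TPM + 1). For genotype by age (0 members) limma called 2 with either pseudocount, and for rapamycin by genotype 2 at 9 months (1 in edgeR). At 3 months (0 in edgeR) 1 was called when only these groups were fitted and 1 by DESeq2. Leaving out 1 library gave 1 to 2 called members for 3mTSCmKO against 3mCON, 1 to 3 for 3mTSCmKO+RM against 3mTSCmKO, 0 to 1 for 9mCON+RM against 9mCON, 0 to 1 for 9mCON against 3mCON, 0 to 1 for genotype by age and 0 to 1 for rapamycin by genotype at 3 months. The cause of these changes was not tested.

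Over all genes, fitting only the groups compared moved the number of calls from 5133 to 2710 in 9mTSCmKO against 9mCON, from 4410 to 2512 in 9mTSCmKO+RM against 9mTSCmKO, from 1604 to 580 in 9mCON+RM against 9mCON, from 92 to 378 in 3mCON+RM against 3mCON, from 1359 to 2563 in 3mTSCmKO+RM against 3mCON+RM, from 2260 to 3740 in 3mTSCmKO+RM against 3mCON and from 467 to 1178 for rapamycin by genotype at 3 months. It also moved it from 669 to 310 for genotype by age and from 660 to 201 for rapamycin by genotype at 9 months, which had 435 calls without the filter. With insert size as a term, 9mTSCmKO against 3mTSCmKO went from 5064 to 1702. In 3mCON+RM against 3mCON the count was 38 without the filter and 181 by DESeq2. In 9mCON against 3mCON, 138 genes were called, against 83 without the filter, 25 with insert size, 34 when only these groups were fitted, 375 by DESeq2 and 218 by limma on log2(TPM + 1).

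In 0 of 12 comparisons did every same-numbered pair of samples exceed a correlation of 0.1, so the replicate number was not treated as a pairing. Single pairs ranged from -0.363 (9mTSCmKO against 9mCON) to 0.412 (9mTSCmKO+RM against 9mCON+RM). Whether some of these samples were linked was not tested. With the replicate block, the Ostn calls under rapamycin were lost in the knockout at 9 months (edgeR adjusted p = 0.051) and at 3 months (0.052), and no other call of a member changed. Depth limited Fgf21 and, outside 9mTSCmKO, Gdf15, where most libraries held 3 counts or fewer.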
